A study of Homo sapiens with 8 samples.

Results

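The SMAD proteins and the regulators that limit them carry and restrain the TGFβ signal. The accessible chromatin around 10 of their genes was followed in MCF10A cells over 72 h of TGFβ1. The genes were SMAD2, SMAD3, SMAD4, SMAD6, SMAD7, SMURF1, SMURF2, SKI, SKIL and PMEPA1. All peaks of 4 peak lists, 1 per condition, were merged where they shared at least 1 bp, and every merged region that overlapped the GENCODE 44 body of one of these genes or the 50 kb on either side of it was kept. This gave 174 of 126658 regions, none of which lay in the windows of more than 1 of the genes. Other genes also lie in these windows, and a region was not taken to act on the gene whose window it lies in.

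MCF10A is an immortalised, non-tumorigenic line of human mammary epithelial cells, here of WT genotype. ATAC-seq, which reads out where a transposase can insert adapters into accessible DNA, was carried out on 8 libraries. The solvent group received 0.1% BSA in PBS, and the other groups received recombinant human TGFβ1 at 5 ng/ml for 6, 24 or 72 h, with 2 replicates per condition. All groups were grown in the same medium with horse serum, EGF, hydrocortisone, cholera toxin and insulin, and TGFβ1 or solvent was renewed every 48 h in long treatments. The labels put the solvent samples at time 0, whereas the study describes solvent as running beside the TGFβ1 wells. The lists were called on both replicates of a condition together, so no value below has a replicate check, and no test between conditions could be made.

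TGFβ1 signals through a receptor complex that phosphorylates SMAD2 and SMAD3. These bind SMAD4, enter the nucleus and act on target genes together with other transcription factors. SMAD6 and SMAD7 are inhibitory SMADs, SMURF1 and SMURF2 are ubiquitin ligases that mark receptors and SMADs for degradation, SKI and SKIL are corepressors that bind SMAD complexes, and PMEPA1 is a membrane protein that sequesters SMAD2 and SMAD3. SMAD7, SKIL and PMEPA1 are known as direct targets of the pathway, which closes a negative feedback loop.

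Each deposited peak carries an AUC, an area that the peak caller computes under its significance curve and that grows with accessibility, peak width and read depth. AUC was summed per region and list and divided by 1.36 at 6 h, 1.3 at 24 h and 1.19 at 72 h, the median ratio to solvent over shared regions within 3 kb of a transcription start site (TSS). This quotient is called scaled AUC. Changes are log2 ratios of scaled AUC to solvent. A region without a peak in one list was set to the authors' AUC threshold of 200 before scaling, so that its fold change is a bound, provided that the peak was missed for its AUC and not for its p-value. Regions were called raised or lowered at 2-fold or more, proximal within 3 kb of any annotated TSS and distal otherwise. Positions are the distance of a region's summit from the TSS of the gene's canonical transcript, with minus signs upstream. The solvent list held 86209 peaks, and the TGFβ1 lists held 107656 (6 h), 118433 (24 h) and 116720 (72 h). The study states a common target depth, but the usable reads behind each list are not known here. All 8 epithelial markers examined (KRT5, KRT14, KRT17, TP63, CDH1, ITGB4, LAMB3 and SFN) had a peak within 1 kb of a TSS in every list. Of 7 markers of blood, endothelial and muscle cells, 2 (PECAM1 and ACTC1) had one in solvent and 3 (also PTPRC) in the TGFβ1 lists, whereas CD3E, CDH5, MYOD1 and DES had none in any list.

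The regions that opened most at these loci lay upstream of or within SMAD3, SMAD7 and PMEPA1. The 201 bp around their summits are given here because the largest rises at 72 h rest on them. Capitals mark the SMAD box CAGAC on either strand, to which SMAD3 and SMAD4 are known to bind, and the AP-1 site TGAGTCA. The sequences are from hg38 (GRCh38). The first and the third were added after their values had been seen, since both lie within 3 kb of an alternative TSS of their gene.
SMAD3 +113.2 kb, chr15:67178713-67178913, plus strand: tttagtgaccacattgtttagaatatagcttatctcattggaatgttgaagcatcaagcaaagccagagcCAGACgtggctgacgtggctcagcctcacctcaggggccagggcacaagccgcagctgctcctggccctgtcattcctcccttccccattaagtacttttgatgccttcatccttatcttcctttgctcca
SMAD3 -21.5 kb, chr15:67044045-67044245, plus strand: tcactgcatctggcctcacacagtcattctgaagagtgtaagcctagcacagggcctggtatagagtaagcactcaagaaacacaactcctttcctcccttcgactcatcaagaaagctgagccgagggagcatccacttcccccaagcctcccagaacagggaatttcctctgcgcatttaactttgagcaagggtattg
SMAD7 +22 kb, chr18:48928892-48929092, plus strand: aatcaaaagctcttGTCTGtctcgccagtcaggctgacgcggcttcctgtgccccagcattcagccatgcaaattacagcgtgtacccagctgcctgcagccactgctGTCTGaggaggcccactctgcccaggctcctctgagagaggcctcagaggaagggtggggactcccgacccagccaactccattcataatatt
PMEPA1 -6.4 kb, chr20:57716358-57716558, plus strand: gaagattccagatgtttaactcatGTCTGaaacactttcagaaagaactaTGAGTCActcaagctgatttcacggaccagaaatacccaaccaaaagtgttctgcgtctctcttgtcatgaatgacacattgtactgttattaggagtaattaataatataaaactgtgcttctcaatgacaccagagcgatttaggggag
PMEPA1 -7.9 kb, chr20:57717851-57718051, plus strand: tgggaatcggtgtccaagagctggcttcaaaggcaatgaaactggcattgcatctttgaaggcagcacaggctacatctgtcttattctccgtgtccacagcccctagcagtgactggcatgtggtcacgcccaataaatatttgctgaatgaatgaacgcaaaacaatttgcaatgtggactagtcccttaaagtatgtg
AP-1 was found only in the PMEPA1 -6.4 kb window among these 5 sequences. The SMAD box stood 2 times in the SMAD7 window, once in the SMAD3 +113.2 kb and the PMEPA1 -6.4 kb windows, and not in the other two.

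Around the 10 genes, opening was far more frequent than closing, and more regions were raised at 24 and 72 h than at 6 h. Of 152 regions with a peak in solvent or at 6 h, 7 were raised at 6 h (4.61%, 95% Wilson interval 2.25 to 9.2%), against 4.77% of all 106930 regions. At 24 h 21 of 160 regions were raised (13.1%, interval 8.75 to 19.2%), against 12.6% of all regions. At 72 h the count was 25 of 164 (15.2%, interval 10.5 to 21.5%), against 16.6%. The share of raised regions at these loci was thus close to that of the genome at each time. The intervals cover counting error only. Without scaling, 31, 42 and 41 regions were raised. With peaks of AUC 400 or more, the counts were 3, 11 and 9. An increase from 24 to 72 h thus depended on the setting.

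Closing was rare. The counts of lowered regions were 0, 1 and 2 over the 3 times, where 0.248%, 1.05% and 1.56% of all regions were lowered. Among distal regions, 4 of 96, 13 of 99 and 17 of 102 were raised at 6, 24 and 72 h, against 5.73%, 15.3% and 20.2% of all distal regions. Proximal regions went the other way. There 3 of 56 (5.36%), 8 of 61 (13.1%) and 8 of 62 (12.9%) were raised, against 3.13%, 7.66% and 9.65% of all proximal regions. In both classes and at each time the Wilson interval held the share of all regions of that class. New peaks appeared at 35, 43 and 47 regions, against 22.9%, 29.8% and 29.3% of all regions. In shares of the regions tested these gains came to 23%, 26.9% and 28.7%. Peaks were lost at 1, 1 and 4 regions, where 0.551%, 1.31% and 2.43% of all regions lost theirs. The solvent list was the shortest. With all lists cut to its length, 17, 15 and 19 regions gained and 7, 12 and 8 lost a peak.

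Regions with a peak in both lists lay slightly above 0. Their median log2 ratio was 0.15 (6 h, n = 116 regions), 0.14 (24 h, n = 116) and 0.27 (72 h, n = 113), beside 0.06, 0.12 and 0.14 over all shared regions. These medians depended on the measure: in AUC per base they were 0.02, 0.031 and 0.073, and when scaled by all shared regions the 24 h median was 0.013. The scaling sets the median of all proximal regions to 0. Against this, proximal regions of the 10 genes had medians of 0.16, 0.04 and 0.13, and distal ones of 0.14, 0.17 and 0.32, where all distal regions had 0.12, 0.23 and 0.27. At 6 h 83 of 116 shared regions lay above 0 (71.6%, against 59.1% of all), and at 72 h 85 of 113 (75.2%, against 63.9%).

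**Figure D1:**
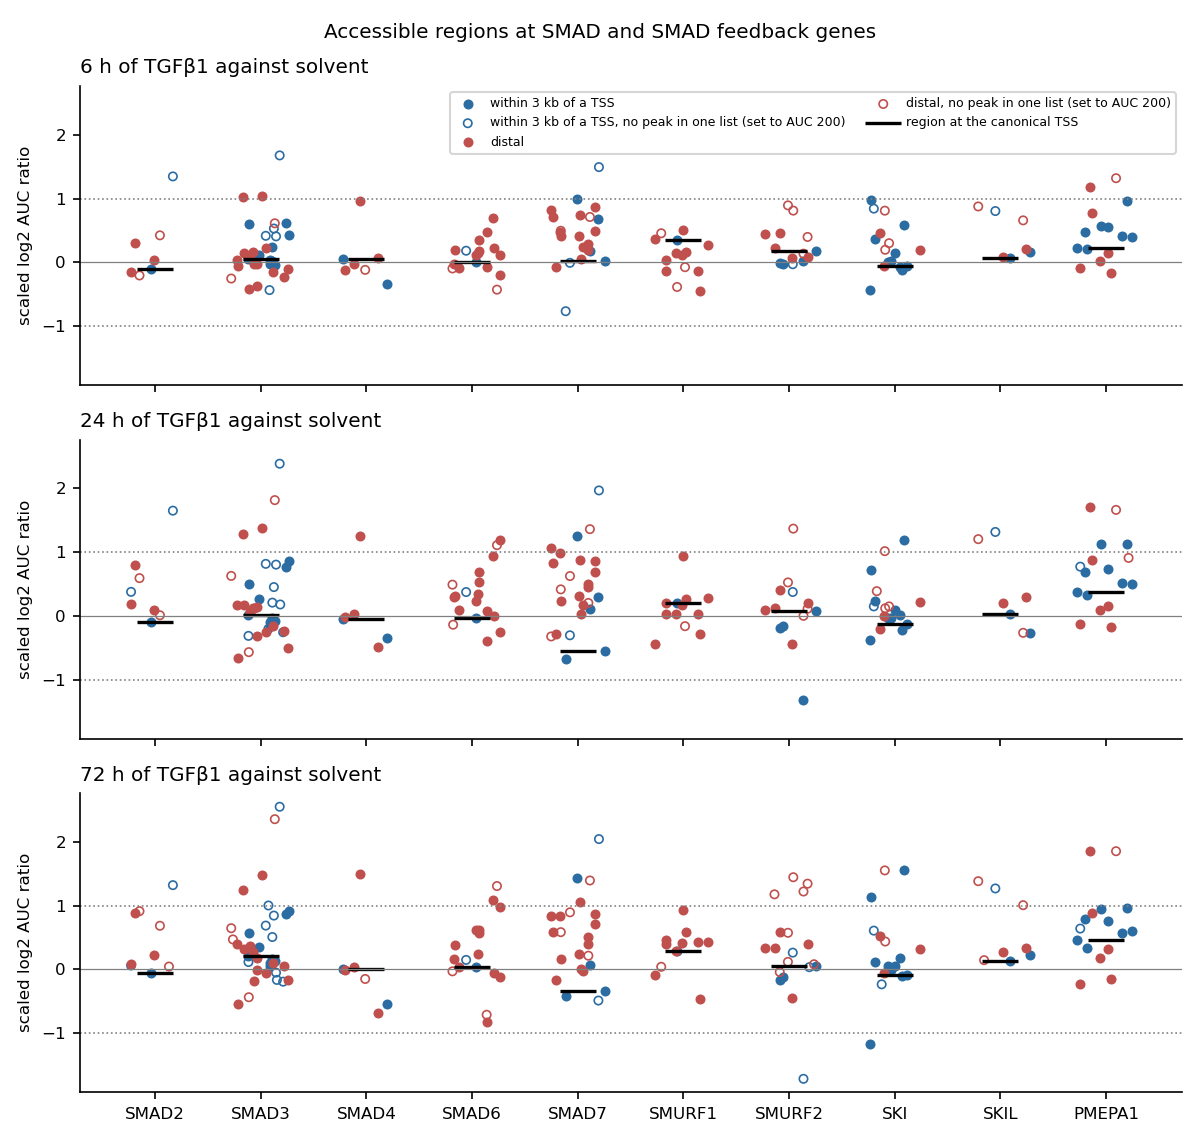
Scaled log2 AUC ratio to solvent (y axis) of every region with a peak in solvent or at that time, by gene, with 1 panel each for 6, 24 and 72 h. Filled points have a peak in both lists, open points in 1 list only, black bars are the regions at or nearest the canonical TSS, and dotted lines mark 2-fold; the points spread upward from 6 to 72 h, whereas the black bars stay between -0.55 and 0.47.

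All 10 promoter regions, at or nearest the canonical TSS, had a peak in every list, and none passed 2-fold at any time. All but that of SMAD7 (1386) had a solvent AUC above 2000. Of all regions at 2000 or more, only 0.0552% (6 h), 0.11% (24 h) and 0.159% (72 h) were raised, so this count is not particular to these promoters. The PMEPA1 promoter region (chr20:57707904-57710753) had a scaled AUC of 3661 in solvent, 4267 (6 h), 4729 (24 h) and 5062 (72 h) and log2 ratios of 0.22 (6 h), 0.37 (24 h) and 0.47 (72 h). In AUC per base, its ratios were 0.29 (6 h), 0.07 (24 h) and 0.04 (72 h). The SMURF1 promoter region (chr7:99141809-99144634) had a scaled AUC of 3498 in solvent, 4458 (6 h), 4020 (24 h) and 4267 (72 h), and ratios of 0.35 (6 h), 0.20 (24 h) and 0.29 (72 h). For SMAD2, SMAD4, SMAD6, SMURF2, SKI and SKIL the ratio stayed between -0.13 and 0.17 at all times.

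Raised regions were weak or absent before treatment. At 72 h, 16 of the 47 regions without a solvent peak were raised, as were 8 of 33 with a solvent AUC between 200 and 500, 1 of 49 between 500 and 2000 and 0 of 35 at 2000 or more. The same order held over all regions, of which 32.1%, 22.1%, 5.59% and 0.159% were raised in these classes. For 16 of the 25 regions raised at 72 h the fold change is therefore a lower bound. The solvent AUC also enters the ratio, so these classes are no independent measure. Of the 25, 17 were distal and 10 lay in an intron of the gene.

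Most regions raised at 6 or 24 h were still raised at 72 h. All 7 regions raised at 6 h were also raised at 24 and 72 h, and 17 of the 21 raised at 24 h were still raised at 72 h. The ratios at 6, 24 and 72 h divide by the same solvent value, so a low solvent value raises all of them. For 4 of the 7 regions solvent had no peak, and its value was set to 200. Of the 29 regions raised at any time, 22 had their largest scaled AUC at 72 h, 7 at 24 h and none at 6 h. As 25 of the 29 were raised at 72 h, they were partly chosen for a high value at that time. The matching shares over all regions were not computed. Just inside the threshold lay SMAD3 +79.3 kb (1.00) and SKIL +56.8 kb (1.01) at 72 h, and just outside it SMAD6 +128.3 kb (0.97) and PMEPA1 -4.6 kb (0.97).

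**Figure D2:**
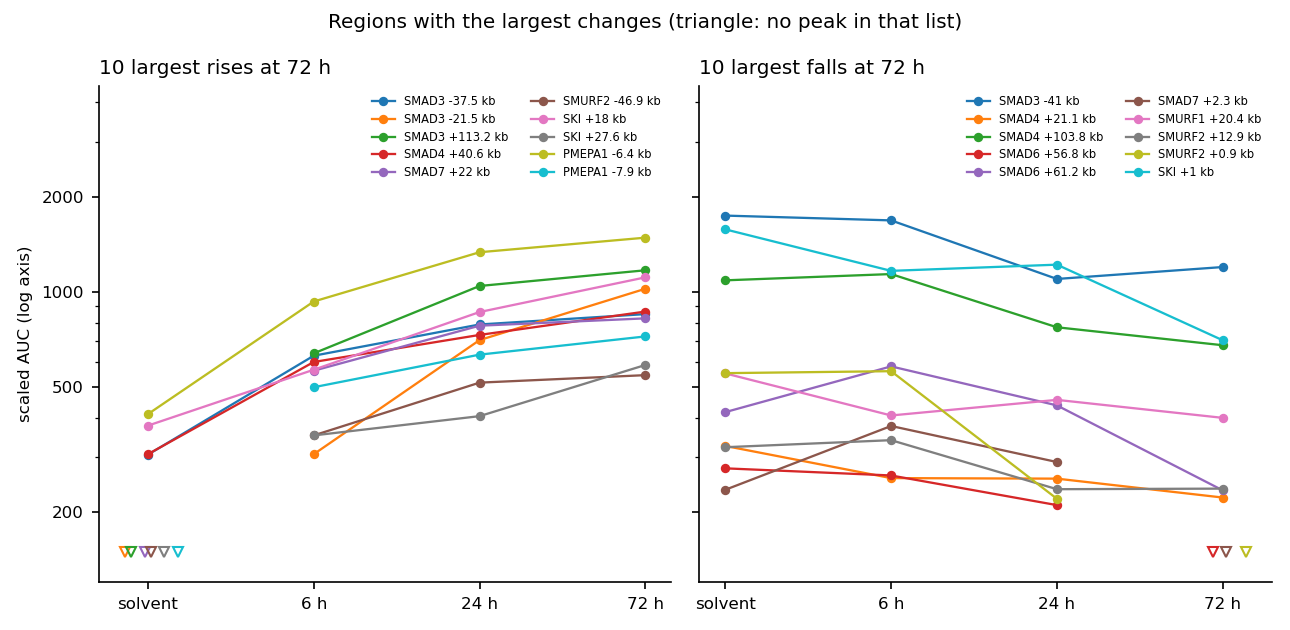
Scaled AUC (log axis) in solvent and at 6, 24 and 72 h of TGFβ1 for the 10 regions of largest rise (left) and the 10 of largest fall (right) at 72 h, each named by gene and distance from the canonical TSS; triangles mark lists without a peak. Of the 10 rising regions, 6 had no solvent peak, and PMEPA1 -6.4 kb reached the highest level with 1487; 3 of the 10 falling regions had no peak at 72 h.

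Most regions were present throughout. A peak stood in all 4 lists in 112 of 174 regions (64.4%, against 62.6% of all regions), and in the 3 TGFβ1 lists but not in solvent in 28 (16.1%, against 14.3%). A further 7 regions were present at 24 and 72 h only (4.02%, against 7.55%) and 10 at 72 h only (5.75%, against 4.61%). Of these last 10, 5 were at SMURF2. Of the 28 present in the 3 TGFβ1 lists but not in solvent, 7 were at SMAD3, 5 at SMURF2 and none at SMAD4 or SMURF1.

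SMAD3, a receptor-regulated SMAD that binds DNA, had the most regions, 38, of which 25 were intronic. Of these, 3, 4 and 5 were raised over the 3 times. The region that rose most among all 174 lay in a SMAD3 intron at +113.2 kb (chr15:67178501-67179014), with no peak in solvent and a scaled AUC of 639 (6 h), 1045 (24 h) and 1172 (72 h). Against solvent this was a rise of at least 3.2-fold after 6 h, and of at least 5.86-fold after 72 h. With peaks of AUC 400 or more, where a missing peak counts as 400, the log2 ratio at 6 h was 0.70, under 2-fold. The region at -21.5 kb (chr15:67044000-67044769), in the body of the gene ENSG00000259347, rose later. It had no peak in solvent and a scaled AUC of 306 (6 h), 704 (24 h) and 1024 (72 h), and at least 5.12-fold more at 72 h than in solvent.

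The next pair of SMAD3 regions was raised from 6 h on, though at 6 h only just past 2-fold. When scaled by all shared regions, their 6 h ratios were 0.979 (-37.5 kb) and 0.966 (+77.3 kb), both under 2-fold. At -37.5 kb (chr15:67027915-67028216) there was a scaled AUC of 305 in solvent, 628 (6 h), 789 (24 h) and 851 (72 h), with log2 ratios of 1.04 (6 h), 1.37 (24 h) and 1.48 (72 h). At +77.3 kb, in an intron (chr15:67142611-67143094), there was a scaled AUC of 389 in solvent, 795 (6 h), 951 (24 h) and 920 (72 h). Its ratio at 72 h was 1.24 in summed AUC but 0.16 in AUC per base, which divides by the summed peak width. At 6 h the ratio per base was 0.11 at +77.3 kb and 0.92 at -37.5 kb. The +79.3 kb intron region was the fifth, with no peak in solvent and at 6 h and a scaled AUC of 174 (24 h) and 401 (72 h).

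Strong SMAD3 regions changed less. The promoter region (chr15:67064951-67066874) had a scaled AUC of 3992 in solvent, 4119 (6 h), 4011 (24 h) and 4641 (72 h). The strongest distal one, at -16 kb, had a scaled AUC of 3655 in solvent, 3387 (6 h), 2581 (24 h) and 3266 (72 h). The intron region at +62.5 kb, which spans an alternative TSS, stayed below 2-fold, with ratios of 0.61 (6 h), 0.76 (24 h) and 0.87 (72 h). At -41 kb accessibility was lower, with a scaled AUC of 1747 in solvent, 1687 (6 h), 1100 (24 h) and 1200 (72 h) and a ratio of -0.54 (72 h).

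SMAD2, the partner of SMAD3 downstream of the TGFβ receptor, had 9 regions and 1 that was raised, at all 3 times. This region lay in an intron at +46.6 kb (chr18:47883965-47884244), with no peak in solvent and a scaled AUC of 509 (6 h), 628 (24 h) and 500 (72 h) and log2 ratios of at least 1.35 (6 h), 1.65 (24 h) and 1.32 (72 h). With peaks of AUC 400 or more, where a missing peak counts as 400, these bounds were 0.37, 0.68 and 0.34, all under 2-fold. The promoter region (chr18:47929800-47931716) was the strongest at this gene, with a scaled AUC of 6730 in solvent, 6265 (6 h), 6301 (24 h) and 6480 (72 h), and showed no 2-fold change. Upstream, at -22.9 kb, the ratio was 0.31 (6 h), 0.80 (24 h) and 0.88 (72 h).

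SMAD4, the common partner of the receptor-regulated SMADs, had 7 regions. A single one was raised, in an intron at +40.6 kb (chr18:51070552-51070895), with a scaled AUC of 306 in solvent, 600 (6 h), 731 (24 h) and 867 (72 h), or 2.83-fold of solvent at 72 h. In AUC per base the ratio was 0.98 at 24 h and 0.82 at 72 h, both under 2-fold. The promoter region (chr18:51029533-51031297) had a scaled AUC of 3566 in solvent, 3683 (6 h), 3433 (24 h) and 3579 (72 h). Downstream of the gene, the +103.8 kb region (chr18:51133604-51134272) was lower at 72 h, with a scaled AUC of 1089 in solvent, 1140 (6 h), 773 (24 h) and 678 (72 h) and a ratio of -0.68 (72 h). Its neighbour at +105.3 kb, the strongest distal region of the window, had a scaled AUC of 3173 in solvent, 3106 (6 h), 3247 (24 h) and 3272 (72 h).

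SMAD7, the inhibitory SMAD that blocks SMAD2 and SMAD3 activation at the receptor, had 25 regions. Raised were 1 at 6 h and 4 each at 24 and 72 h. In an intron at +22 kb (chr18:48928819-48929165) there was no peak in solvent and a scaled AUC of 563 (6 h), 782 (24 h) and 825 (72 h), at least 2.82-fold, 3.91-fold and 4.12-fold above solvent. With peaks of AUC 400 or more, its log2 ratios at 6 and 24 h were 0.514 and 0.996, both under 2-fold. The region at +8.2 kb (chr18:48942546-48943441), over an exon and an alternative TSS of SMAD7, was already open and rose further. It had a scaled AUC of 1196 in solvent, 2386 (6 h), 2857 (24 h) and 3232 (72 h), with log2 ratios of 0.997 (6 h), 1.26 (24 h) and 1.43 (72 h), and so lay just under 2-fold at 6 h.

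Upstream of SMAD7, the regions at -5.1 and -6.3 kb opened together. The first had a scaled AUC of 306 in solvent, 512 (6 h), 560 (24 h) and 636 (72 h), and the second no peak in solvent and a scaled AUC of 327 (6 h), 513 (24 h) and 526 (72 h). Downstream, the +48.9 kb region had a scaled AUC of 876 in solvent, 1543 (6 h), 1842 (24 h) and 1562 (72 h) and was raised at 24 h only. The canonical TSS itself lay 74 bp outside the nearest region, between a weaker region at +1 kb (chr18:48949075-48950891) and a stronger one at -1.8 kb (chr18:48951352-48953233). These moved differently. The +1 kb region, over an exon, had a scaled AUC of 1386 in solvent, 1401 (6 h), 947 (24 h) and 1095 (72 h), with ratios of 0.01 (6 h), -0.55 (24 h) and -0.34 (72 h). In the -1.8 kb region there was a scaled AUC of 4453 in solvent, 5016 (6 h), 4785 (24 h) and 4687 (72 h), with ratios of 0.17 (6 h), 0.10 (24 h) and 0.07 (72 h).

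SMAD6, the inhibitory SMAD best known for restraining BMP signalling, had 18 regions, 2 of them raised at 24 h and 2 at 72 h. The intron region at +64.8 kb (chr15:66766897-66767145) had no peak in solvent and a scaled AUC of 149 (6 h), 431 (24 h) and 495 (72 h), which makes its 6 h ratio of -0.43 a value set by the threshold. With peaks of AUC 400 or more, its log2 ratios were 0.14 (24 h) and 0.33 (72 h), both under 2-fold. The second raised at 72 h, at +78.1 kb, had a scaled AUC of 264 in solvent, 428 (6 h), 507 (24 h) and 562 (72 h). The promoter region (chr15:66700764-66702637) had ratios between -0.03 and 0.04, with a scaled AUC of 4714 in solvent, 4713 (6 h), 4623 (24 h) and 4843 (72 h). A pair of SMAD6 intron regions was lower or without a peak at 72 h. At +61.2 kb (chr15:66763152-66763755) there was a scaled AUC of 416 in solvent, 581 (6 h), 437 (24 h) and 235 (72 h), and at +56.8 kb no peak at 72 h and a scaled AUC of 276 in solvent, 262 (6 h) and 211 (24 h), so that its ratio of -0.71 (72 h) is an upper limit.

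PMEPA1, which binds SMAD2 and SMAD3 at membranes, had 17 regions, with 2, 4 and 2 raised over the 3 times. All 4 of those at 24 h lay in a cluster upstream of the gene. At -6.4 kb (chr20:57716218-57716825) there was a scaled AUC of 410 in solvent, 933 (6 h), 1337 (24 h) and 1487 (72 h), or 2.28-fold, 3.26-fold and 3.63-fold of solvent. The neighbour at -7.9 kb (chr20:57717671-57718126) had no peak in solvent and a scaled AUC of 499 (6 h), 633 (24 h) and 723 (72 h), at least 3.61-fold above solvent at 72 h. With peaks of AUC 400 or more, its log2 ratios were 0.34 (6 h), 0.69 (24 h) and 0.88 (72 h), all under 2-fold. Closer to the gene, the regions at -4.6 and -3.7 kb peaked at 24 h. Their log2 ratios were 0.97 (6 h), 1.13 (24 h) and 0.97 (72 h) for the first and 0.57 (6 h), 1.13 (24 h) and 0.94 (72 h) for the second.

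Other PMEPA1 regions with a solvent peak had ratios below 2-fold. The -38.8 kb region had a scaled AUC of 1652 in solvent, 2835 (6 h), 3035 (24 h) and 3045 (72 h). Within the gene, +14.8 kb had ratios of 0.39 (6 h), 0.49 (24 h) and 0.61 (72 h) and +16.7 kb of 0.42 (6 h), 0.51 (24 h) and 0.57 (72 h). In contrast, the intron regions at +52.2 and +55.6 kb had negative ratios, at 72 h of -0.15 and -0.23. Of regions shared with solvent at 72 h, 12 of 14 lay above 0 at PMEPA1 and 13 of 17 at SMAD7.

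Sums over a whole window count a missing peak as 0, and the solvent list was the shortest, so they also reflect how much was called. Over its window, SMAD7 had a log2 ratio of 0.39 at 6 h, above 92.8% of 16301 protein-coding genes with at least 5 regions in the same kind of window, and of 0.43 at 72 h, above 84.1%. For PMEPA1 the sums gave 0.33 at 6 h, above 90.4% of genes, and 0.53 at 72 h, above 88.5%. High ranks were not limited to these genes. SMURF1 lay above 87.5% of genes at 6 h and 78.5% at 72 h, and SKIL above 82.4% and 80%. SMAD2, SMAD3, SMAD6 and SMURF2 lay above 75%, 79.1%, 69.7% and 70.4% at 72 h. SMAD4 and SKI lay near the middle, with 0.05 and 0.10 at 72 h, above 39.7% and 48.1%. The median gene had 0.05 at 6 h and 0.11 at 72 h. Windows of neighbouring genes overlap, so these percentages describe a position and are not a test. When scaled by the median of all shared regions instead, the sums of SMAD4 and SKI at 72 h came to -0.09 and -0.05, whereas SMAD7 and PMEPA1 stayed positive at 0.28 and 0.39. Peaks covered 10677 bp of the SMAD7 window in solvent and 15446 bp at 6 h, and 9322 and 12605 bp at PMEPA1. Over regions shared with solvent alone, SMAD7 had 0.34 at 6 h and at 72 h, above 96.9% and 90.1% of genes. PMEPA1 then had 0.31 and 0.49, above 96.2% and 95.1%. SMURF1 had 0.205 and 0.317, above 91.6% and 89.1%, and the remaining genes lay above 48.5% to 80.9% at 72 h. By AUC per covered base, the log2 ratios were mostly negative. SMAD7 had -0.148 at 6 h, -0.067 at 24 h and 0.026 at 72 h, above 82.2%, 87.5% and 88.7% of genes. PMEPA1 had -0.105, -0.179 and -0.055 at these times, above 90.4%, 59.1% and 73.1%. The median gene had -0.24, -0.204 and -0.121. Except for SMAD7 at 72 h, these ranks thus stand for a smaller fall than in the median gene and not for a rise. Of the other genes at 72 h, SMURF1 had 0.075, above 93.4% of genes, and SMAD6 -0.009, above 83.4%. SKI, SMAD4 and SMAD3 lay above 68.1%, 63.5% and 56%. SMAD2, SKIL and SMURF2 lay above only 11.3%, 8.77% and 6.95%, so their ranks by window sum did not hold per covered base. Both further measures, over shared regions and per covered base, were chosen with the data in view.

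SMURF2, a ubiquitin ligase that targets SMADs and receptors, had 19 regions and opened mostly at 72 h. Of these 0, 1 and 4 were raised over the 3 times. All 4 lay upstream of the gene and lacked a solvent peak. At -46.9 kb (chr17:64709061-64709347) there was no peak in solvent and a scaled AUC of 351 (6 h), 516 (24 h) and 545 (72 h). With peaks of AUC 400 or more, the log2 ratios there were 0.40 (24 h) and 0.47 (72 h), both under 2-fold. The region at -25.9 kb appeared at 72 h only, with a scaled AUC of 453. At -9.4 kb there was no peak in solvent and a scaled AUC of 264 (6 h), 216 (24 h) and 508 (72 h), and at -6 kb no peak in solvent and a scaled AUC of 220 (6 h), 200 (24 h) and 467 (72 h).

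The strongest region in the SMURF2 window lay over another promoter. At +155.8 kb, over the DDX5 TSS, there was a scaled AUC of 6621 in solvent, 6560 (6 h), 5780 (24 h) and 5892 (72 h). The SMURF2 promoter region itself (chr17:64661773-64662920) had a scaled AUC of 2727 in solvent, 3070 (6 h), 2873 (24 h) and 2831 (72 h). In the first part of the gene, at +0.9 kb in an intron (chr17:64660965-64661669), no peak remained at 72 h. This region had no peak at 72 h and a scaled AUC of 553 in solvent, 561 (6 h) and 221 (24 h). It was 0.4-fold of solvent at 24 h and at most 0.305-fold at 72 h, the largest fall of all 174 regions. At 24 h the ratio was -1.32, which became -0.48 in AUC per base and -0.94 without scaling.

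SMURF1, the related ligase, had 14 regions and none that was raised or lowered. The highest ratio lay in an intron at +71.1 kb (chr7:99072898-99073190), with a scaled AUC of 297 in solvent, 423 (6 h), 567 (24 h) and 568 (72 h) and log2 ratios of 0.51 (6 h), 0.93 (24 h) and 0.93 (72 h). The lowest at 6 and 72 h was that of +20.4 kb, with a scaled AUC of 552 in solvent, 406 (6 h), 455 (24 h) and 399 (72 h) and ratios of -0.44 (6 h), -0.28 (24 h) and -0.47 (72 h). Taken by its strongest peak alone, its ratio at 6 h was -1.25.

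SKI, a corepressor of SMAD complexes, had 19 regions, with 2 raised at 24 h and 3 at 72 h. The intron region at +18 kb (chr1:2245961-2246661) had a scaled AUC of 377 in solvent, 567 (6 h), 864 (24 h) and 1113 (72 h) and a ratio of 1.56 (72 h), which was 0.18 in AUC per base. At +27.6 kb, also in an intron, there was no peak in solvent and a scaled AUC of 351 (6 h), 404 (24 h) and 587 (72 h). Upstream at -22.9 kb, inside the gene FAAP20, there was a scaled AUC of 269 in solvent, 533 (6 h), 442 (24 h) and 589 (72 h). With peaks of AUC 400 or more, the +27.6 kb ratios were 0.045 (24 h) and 0.575 (72 h). The -22.9 kb ratio was then 0.58 (72 h), so that all of these were under 2-fold. The promoter region (chr1:2227128-2228515) stayed between 3908 and 4273 in scaled AUC. Beside it at +1 kb (chr1:2228713-2230662), over the first coding exon, there was a scaled AUC of 1580 in solvent, 1167 (6 h), 1221 (24 h) and 703 (72 h). The ratio there was -1.17 (72 h), the second region lowered at 72 h, -0.27 in AUC per base and -0.92 without scaling.

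SKIL, the relative of SKI also called SnoN, had 8 regions, of which 2 were raised at 24 h and 3 at 72 h. None of the 3 had a solvent peak. At -22.6 kb (chr3:170334938-170335191) there was no peak in solvent and a scaled AUC of 367 (6 h), 461 (24 h) and 522 (72 h). The -10.8 kb region had no peak in solvent and a scaled AUC of 349 (6 h), 498 (24 h) and 482 (72 h), and the +56.8 kb region downstream of the gene no peak in solvent and a scaled AUC of 316 (6 h), 166 (24 h) and 402 (72 h). The SKIL promoter region (chr3:170356324-170358635) was the strongest promoter of the 10 genes in summed AUC, with a scaled AUC of 7478 in solvent, 7841 (6 h), 7662 (24 h) and 8164 (72 h).

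Sequences of closing regions are shown for comparison. For SMURF2 +0.9 kb and SKI +1 kb, the regions lowered 2-fold, and for SMAD6 +61.2 kb, the next in order, the 201 bp around the summit are shown. Capitals mark the SMAD box and the GC-rich SMAD element GGCGCC. The SMURF2 and SKI windows were again added after their values had been seen.
SMURF2 +0.9 kb, chr17:64661284-64661484, plus strand: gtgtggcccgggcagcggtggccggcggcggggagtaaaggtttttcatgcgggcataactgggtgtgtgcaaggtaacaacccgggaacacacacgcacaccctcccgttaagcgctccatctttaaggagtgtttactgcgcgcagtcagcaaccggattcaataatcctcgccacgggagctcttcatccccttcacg
SKI +1 kb, chr1:2229220-2229420, plus strand: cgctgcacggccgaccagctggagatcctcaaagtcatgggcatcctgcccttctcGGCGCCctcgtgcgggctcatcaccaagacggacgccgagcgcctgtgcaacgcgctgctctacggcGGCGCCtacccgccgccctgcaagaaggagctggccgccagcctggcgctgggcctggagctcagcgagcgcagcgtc
SMAD6 +61.2 kb, chr15:66763343-66763543, plus strand: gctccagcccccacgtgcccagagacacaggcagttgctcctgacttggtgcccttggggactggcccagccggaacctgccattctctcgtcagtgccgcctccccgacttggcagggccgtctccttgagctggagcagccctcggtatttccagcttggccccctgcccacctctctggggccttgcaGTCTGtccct
The SKI window, in coding sequence, held GGCGCC 2 times. The SMURF2 window held none of the motifs searched.

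Most of the SMAD and AP-1 motifs searched stood at these loci in a share close to that of all regions. The AP-1 site TGAGTCA stood in 52 of 174 summit windows (29.9%, against 32.3% of all). Among the regions raised at 72 h it stood in 6 of 25 (24%), beside 44.9% of all raised regions. Over whole regions it stood in 66 of 174 (37.9%, against 38.4%). The SMAD box CAGAC was found in 68 of 174 windows (39.1%, against 39.4%) and in 12 of the 25 raised ones (48%, against 48.5%). GGCGCC stood in 15 of 174 (8.62%, against 5.43%). In distal windows alone its share was further from that of all regions, with 8 of 109 (7.34%, against 2.27% of all distal regions). The E-box CACCTG, bound by SNAIL and ZEB factors, stood in 32 of 174 (18.4%, against 17.9%). Both strands were searched. A match is a description of letters and not a measured binding site.

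The SMAD palindrome GTCTAGAC, searched with its variant GTCTGGAC, which contains a SMAD box, stood in 1 of 174 summit windows (0.575%, against 0.942% of all). That window was the one at the SMAD6 promoter. Over whole regions there were 7 matches in 7 of 174 regions (4.02%, against 2.21% of all 126658). The matches nearest to the TSS of SMAD7 and of PMEPA1 are shown with 11 bases on each side, the palindrome in capitals. At PMEPA1 the variant is read on the minus strand.
SMAD7 -1.25 kb, chr18:48952207-48952236, plus strand: gtcacgtggccGTCTAGACaccctgtcgct
PMEPA1 +1.38 kb, chr20:57708628-57708657, plus strand: tgaaccaagctGTCCAGACagaggctattt
They lie in the -1.8 kb region of SMAD7 and in the promoter region of PMEPA1. At 72 h the log2 ratios of these regions were 0.07 and 0.47, that of PMEPA1 being 0.04 in AUC per base. None of the 7 regions was raised 2-fold, and those of SKI, SMURF2, SMAD2, SMAD6 and the PMEPA1 intron had ratios between -0.17 and 0.08 at 72 h.

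In the RefSeq promoters of GRCh38.p14 (250 bases before to 50 after a start), sequences were found for 9 of the 10 genes, all but SKI. The palindrome stood in 0.8% of all 35116 promoters, and here at SMAD6 and at 1 of the 5 SMAD3 starts. The SMAD7 start nearest to the canonical TSS held the SMAD box 2 times. Of all promoters 38% held it.

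For comparison, 29 other genes of the TGFβ pathway had 418 regions outside the windows above. Of those tested, 17 of 375 (4.53%), 47 of 398 (11.8%) and 54 of 391 (13.8%) were raised over the 3 times. Over all regions these shares were 4.77%, 12.6% and 16.6%. Lowered were 0, 4 (1.01%) and 8 (2.05%), against 0.248%, 1.05% and 1.56% of all regions. NEDD4L and LDLRAD4, a ubiquitin ligase and a membrane inhibitor of the pathway, had the most raised regions at 72 h. These were 7 of 48 tested regions at NEDD4L, whose window holds many, and 7 of 15 at LDLRAD4. At 72 h 22 of the 29 genes had a raised region, but the share of all genes with one was not computed. The 1 promoter raised at each time was that of TGIF2, a corepressor of SMAD2 and SMAD3, which had no solvent peak and log2 ratios of at least 1.42 at 6 h and 1.30 at 72 h.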

How the data were processed

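Per the methods and labels, the authors trimmed the reads of the 8 ATAC-seq libraries (Trimmomatic 0.38), aligned them to GRCh38 (Bowtie2 2.4.5), removed duplicates with Picard and kept pairs of mapping quality above 30 with SAMtools 1.4.1. Versions come from the submitters' processing notes. Genrich 0.5 called peaks on both replicates together at an AUC above 200 and an adjusted p below 0.01, and blacklisted regions were removed. The deposited signal is the AUC of each peak, not scaled between lists. Each list was matched to its condition by name. The offset of the deposited summits was used as well. The study's own differential test, made on reads per replicate, was not used here.

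Regions were merged, annotated with GENCODE 44, summed and scaled as described above, by scripts that used pandas 2.3.3, numpy 2.4.6 and scipy 1.17.1 under Python 3.11.15. Plots were drawn with matplotlib 3.10.9. The procedure was tested on simulated data. Without values per replicate there is no test, and Wilson intervals cover counting error only. The genes and lists were chosen with earlier results of these data known, and 2 genes of the lists are not reported here. Named were the 10 promoter regions, the 10 largest rises and falls at 6 and 72 h, the strongest distal region of each gene and regions with the SMAD palindrome. Further regions were named after their values were seen. Sequence was shown by rule for distal regions among the 5 largest rises and 3 largest falls at 72 h that touch no UTR. The SMAD box and the search of whole regions were added after seeing the data. Alternatives covered the scaling, the AUC measure, the window, the peak threshold, the list length, the overlap and the fold.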

Additional observations from a re-analysis of the deposited data

How the results depend on the processing

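No paired analysis was possible because each list pools both replicates, and for the same reason no replicate could be left out. No median over all member regions turned in sign. Of 39 ratios past 2-fold at single named regions, 0 turned in sign in the 7 alternatives recomputed for them, whereas 3 to 31 of all named ratios did in each, and the window sums of SMAD4 and SKI turned as given above. Gene bodies with 10 kb flanks, and scaling within 1 kb of a TSS, moved no count by more than 1.5 times and no median beyond its interval. Scaling sets the counts: without it, 31, 42 and 41 regions were raised at 6, 24 and 72 h, 0 and 1 were lowered at 24 and 72 h, and the medians were 0.59, 0.52 and 0.52. Scaling by all shared regions, which lowers every ratio by 0.064 to 0.145, gave medians of 0.013 at 24 h and 0.12 at 72 h. In AUC per base the medians were 0.02, 0.031 and 0.073, with 1 region lowered at 6 h. By the strongest peak, 1 and 2 were lowered at 6 and 24 h. With regions assigned by nearest protein-coding TSS, 11 were raised at 6 h. Peaks of AUC 400 or more gave 3, 11 and 9 raised, 0 and 1 lowered at 24 and 72 h, and 2 and 2 peaks lost. Missing values are then set to 400, which lowers the bounds. Lists of equal length gave 17, 15 and 19 gained, 7, 12 and 8 lost, and 1, 0 and 1 lowered. At 1.5-fold, 30, 43 and 52 were raised and 1, 3 and 5 lowered. Requiring 50% of both peaks gave 21, 16 and 21 lost. Among values of single named regions, 22 of 127 crossed 2-fold at AUC 400 or more, 12 of 149 without scaling and 11 of 149 per base, and at most 5 in each of the other alternatives recomputed for them. The usable depth is not known, so weak peaks missing from the shorter solvent list cannot be told apart from closed regions.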
